A study of Mus musculus with 6 samples.

Results

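The genes described here encode the subunits of the mitochondrial oxidative phosphorylation machinery that are carried in the cell nucleus. They were taken by name from a table of read counts in mouse liver: every row whose symbol begins with Nduf followed by a, b, c, s or v and a digit, Sdha to Sdhd, and every row beginning with Uqcr, Cox4 to Cox8 or Atp5, without pseudogene rows and without rows of the mitochondrial chromosome. The pattern matched 86 rows, of which 2 were pseudogene rows, so 84 genes of 35977 in the table remained. All libraries came from bulk liver of mice given a Cre recombinase vector of adeno-associated virus serotype 9 (AAV9) with the Tnnt2 (cardiac troponin T) promoter, which is active in heart muscle. In 3 libraries (Cre replicates 10, 11 and 12) the vector was AAV9-Tnnt2-Cre, and in the other 3 (Cre-miR122 replicates 1, 2 and 4) it was AAV9-Tnnt2-Cre-miR122, which adds sites matched by miR-122, the main microRNA of hepatocytes, to the Cre transcript. No uninjected liver was analysed here. No source used here gives strain, age, dose, time after injection or whether each library is a separate animal, so p-values measure only the spread between these libraries, some of which may be technical. In bulk tissue, fewer cells of a type and less RNA per cell cannot be told apart.

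Oxidative phosphorylation passes electrons from NADH through complex I, or from succinate through complex II, to coenzyme Q, then through complex III and cytochrome c to complex IV, which reduces oxygen. Complexes I, III and IV pump protons, and complex V, the ATP synthase, uses their return to make ATP. Hepatocytes are rich in mitochondria, and their respiration feeds urea synthesis, gluconeogenesis and fatty acid oxidation. Most subunits are nuclear, are made in the cytosol and are imported, and they assemble with the few subunits encoded in the mitochondrial genome. Several subunits of complex IV exist as tissue isoforms from separate genes, with forms typical of heart and skeletal muscle, of lung and of testis beside the common forms used in liver.

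The names gave 35 genes of complex I, 4 of complex II, 8 of complex III, 20 of complex IV and 15 of complex V. Ndufa4 and its paralog Ndufa4l2 are counted with complex IV, where the Ndufa4 protein is found. Atp5s and Atp5sl carry the name but are not subunits of the ATP synthase and are kept apart. The pattern leaves out the complex I acyl carrier protein gene Ndufab1 and the complex III cytochrome gene Cyc1, which are given further on. After a filter on low counts 79 of the 84 genes were tested. The 5 that did not pass were Cox4i2, Cox6a2, Cox7b2, Cox8b and Cox8c, all isoforms typical of other tissues.

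Promoter sequences are shown because these genes are known as targets of a small set of regulators: NRF1, the ETS factor GABP, and YY1, with the coactivator PGC-1alpha acting through them. RefSeq promoter windows of GRCm38.p6, running from 250 bases before to 50 bases after the start, were found for 69 of the 84 genes. The 100 bases before the start are printed for 6 of them, 5′ to 3′ on the strand of the gene, with matched motif letters in capitals. Ndufb7 and Uqcr11 belong to the genes with the lowest p-values among those below 0 in the vector comparison. Ndufb4 and Ndufa3, with lower p-values still, are not printed. The window of Ndufb4 held none of the motifs searched, and that of Ndufa3 only the YY1 motif, after the start. Atp5k and Atp5g2 hold the NRF1 motif. Cox7a2 and Cox7a1 are the common and the muscle form of 1 subunit, with no motif letters in the bases printed.
Ndufb7, chr8:83566658-83566757, plus strand: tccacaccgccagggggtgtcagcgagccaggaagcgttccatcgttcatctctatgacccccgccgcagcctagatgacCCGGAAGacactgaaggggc
Uqcr11, chr10:80406822-80406921, minus strand: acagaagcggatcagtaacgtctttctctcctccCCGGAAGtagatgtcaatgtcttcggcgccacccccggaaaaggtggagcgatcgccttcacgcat
Atp5k, chr5:108434400-108434499, minus strand: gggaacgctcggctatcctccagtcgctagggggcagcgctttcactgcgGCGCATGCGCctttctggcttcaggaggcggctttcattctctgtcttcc
Atp5g2, chr15:102671048-102671147, minus strand: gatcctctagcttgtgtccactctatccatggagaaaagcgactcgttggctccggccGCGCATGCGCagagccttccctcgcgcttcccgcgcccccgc
Cox7a2, chr9:79759854-79759953, minus strand: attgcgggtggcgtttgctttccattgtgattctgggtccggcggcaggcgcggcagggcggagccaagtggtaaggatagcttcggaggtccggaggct
Cox7a1, chr7:30184071-30184170, plus strand: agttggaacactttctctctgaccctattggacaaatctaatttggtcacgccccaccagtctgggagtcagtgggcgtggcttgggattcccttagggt

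The letters searched, on both strands, were the 10-base palindromic NRF1 motif shown in capitals in Atp5k and Atp5g2, CCGGAAG for ETS factors and AAGATGGC for YY1, and none of them holds another. The NRF1 letters occurred in 5 of 69 genes (7.25%), against 1.07% of all 27025 genes with a window and 2.19% of the 10848 genes that were also tested in these livers. The ETS letters occurred in 16 genes (23.2%), against 9.93% and 18.5%. The YY1 letters occurred in 11 genes (15.9%), against 3.19% and 4.94%. At least 1 of them was present in 29 of 69 genes (42%), against 13.4% of all genes with a window and 23.9% of the tested ones. Such matches are letters only: the libraries did not measure binding.

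The nuclear subunit genes were among the most abundant transcripts of the liver. Levels are compared between genes per kilobase of exon, as RPKM. This is the CPM, a gene's count scaled to the same total in every library, divided by the exon length in the count table. That length joins all annotated exons of a gene, so a rare long exon lowers the value. Of the 79 tested genes 73 lay in the top 10% of tested genes by RPKM, and their median RPKM was 125, against 3.65 for all tested genes. All 84 together took 1.24%, 1.18% and 1.11% of the counts in Cre replicates 10, 11 and 12, and 1.17%, 1.14% and 1.12% in Cre-miR122 replicates 1, 2 and 4, so the groups overlapped.

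Within a complex the levels spread widely. In complex V the catalytic beta subunit gene Atp5b stood highest, at 703 RPKM, followed by Atp5g3 at 612 and the alpha subunit gene Atp5a1 at 454, with Atp5g2 lowest at 76.9 (SD over 6 libraries 78.2, 46.1, 43.6 and 5.95). In complex IV Cox4i1, whose protein binds the catalytic core, was highest at 482 ± 36.4 RPKM. In complex III Uqcrb was highest at 269 ± 25.9 RPKM and Uqcrq lowest at 124 ± 15.6 RPKM (SD, n = 6). Uqcr10 at 130 ± 10.9 and Uqcrc2 at 133 ± 10.4 RPKM lay within the spread of Uqcrq. The exon length is 1525 bases for Uqcrq and 503 for Uqcrb. Without division by length Uqcrq was the higher, at 201.8 against 142.5 CPM with Cre and 177.7 against 127.9 CPM with Cre-miR122. The 4 genes of succinate dehydrogenase lay close together, from Sdhc at 139 ± 8.40 to Sdhd at 175 ± 11.5 RPKM, with the flavoprotein gene Sdha at 144 ± 17.3 and the iron-sulfur gene Sdhb at 144 ± 5.51. Sdha, Sdhb and Sdhc differed by less than their spread. Complex I genes were lower, with a median of 69.3 RPKM, against 218 for the tested complex IV genes. They ran from the accessory subunit gene Ndufb10 at 198 ± 14.02 to Ndufa11 at 13.7 ± 1.66 RPKM, the latter with an exon length of 2661 bases. Atp5s and Atp5sl, which are not subunits, were at 3.42 ± 0.386 and 15.6 ± 1.40 RPKM.

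**Figure D1:**
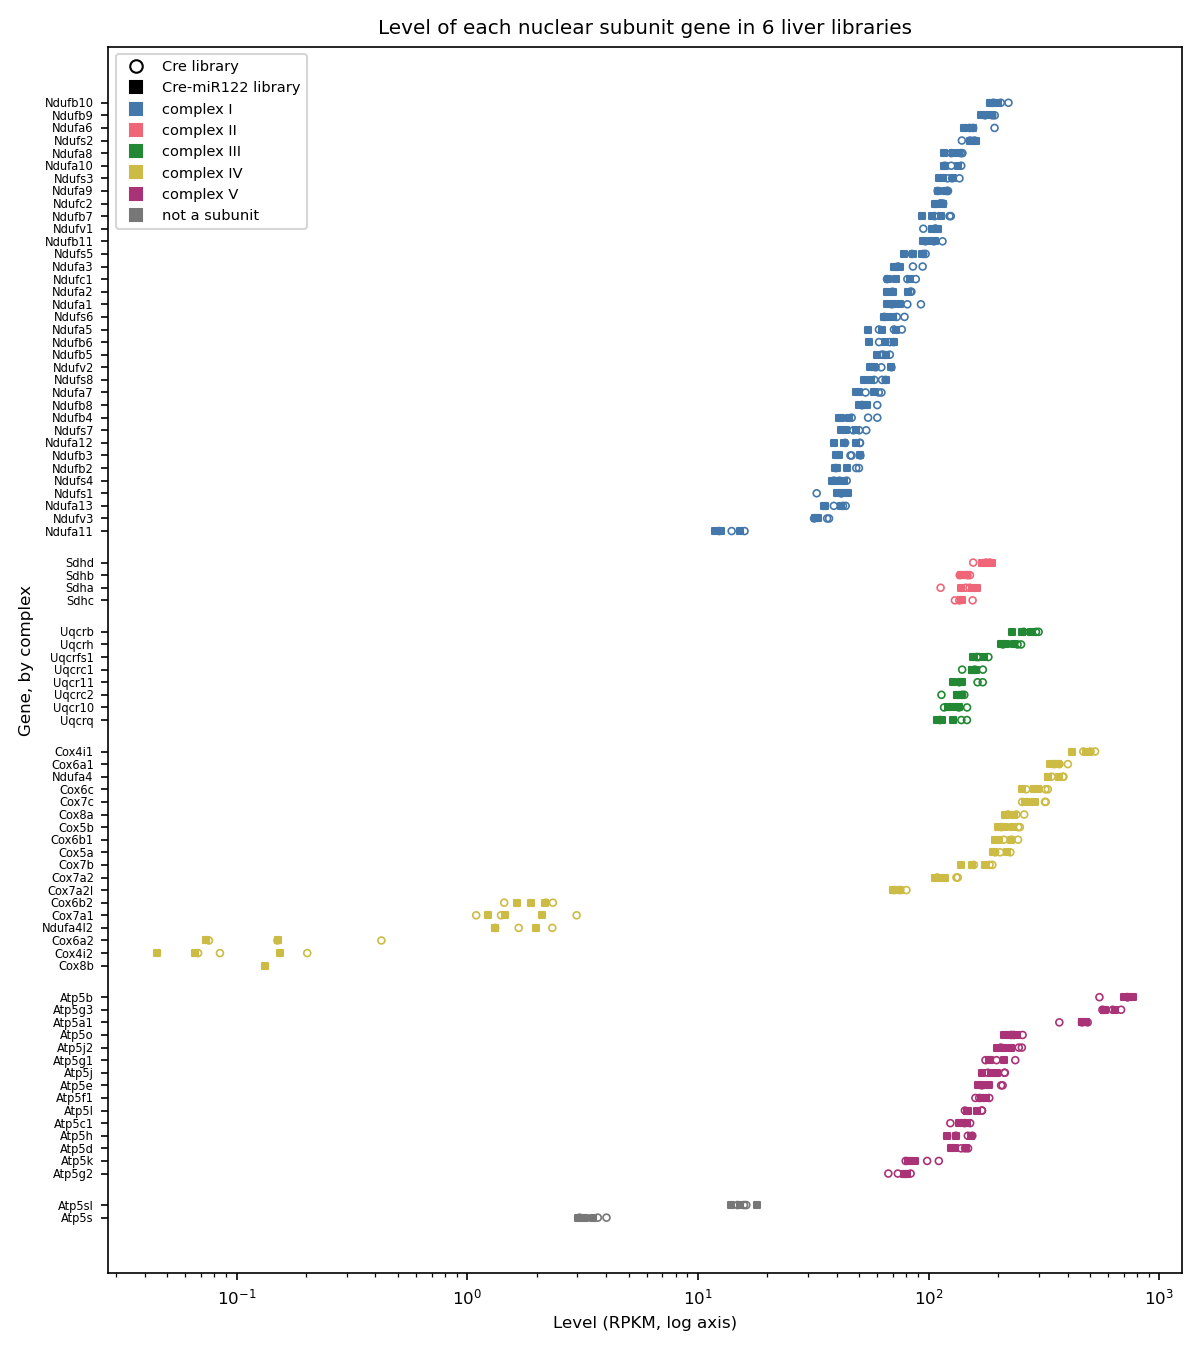
RPKM of each gene on a log axis in every library, grouped by complex, with open circles for Cre and filled squares for Cre-miR122 libraries. Values of 0 are not drawn, so Cox7b2 and Cox8c are absent. Atp5b, Atp5g3 and Cox4i1 lie farthest right, and the isoforms Cox6b2, Cox7a1, Ndufa4l2, Cox6a2, Cox4i2 and Cox8b and the non-subunit gene Atp5s farthest left.

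For the complex IV subunits with isoforms, the liver libraries held the common form almost alone. Cox8a, the common form of subunit VIII, had 15481 counts over the 6 libraries, the heart and muscle form Cox8b 1 count and the testis form Cox8c 0. Cox7b had 20455 counts and Cox7b2 0. Taking 3 counts as the limit that a count of 0 allows, these genes could be at up to 0.140 to 0.150 CPM in a library, and such limits cover counting error only. Cox6a2, the heart and muscle form of subunit VIa, had 2, 6 and 1 counts in Cre replicates 10, 11 and 12 and 2, 1 and 1 in Cre-miR122 replicates 1, 2 and 4, so the groups overlapped. Cox6a1 averaged 199 ± 13.9 CPM in Cre and 187 ± 8.23 CPM in Cre-miR122 libraries (SD, n = 3 each), a log2 fold change of -0.09 (SE 0.084, edgeR adjusted p = 0.839) that was -0.034 with Cre replicate 10 left out and -0.056 with Cre-miR122 replicate 4 left out. Cox4i2, the form typical of lung, had 9, 4 and 3 counts with Cre and 2, 3 and 7 with Cre-miR122, again with overlap.

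The muscle form Cox7a1 was low but present. It had 22, 11 and 8 counts in Cre replicates 10, 11 and 12 and 9, 16 and 11 in Cre-miR122 replicates 1, 2 and 4, with overlap. It was highest in Cre replicate 10, and its log2 fold change of -0.18 (SE 0.43, edgeR adjusted p = 0.941) was 0.35 without that library. The common form Cox7a2 was 69.2 times as high per exon length over the 6 libraries, and Cox7a2l, a related protein that joins complexes III and IV, was at 74.0 ± 3.73 RPKM (SD, n = 6) against 118 ± 11.8 for Cox7a2. Cox6b2, typical of testis, made up 0.879% ± 0.263 of the summed Cox6b1 and Cox6b2 RPKM with Cre and 0.910% ± 0.0852 with Cre-miR122 (SD, n = 3 each). Ndufa4l2, known to be induced by low oxygen, made up 0.476% ± 0.115 and 0.445% ± 0.0777 of the summed Ndufa4 and Ndufa4l2 RPKM. For both, the difference between the groups was smaller than the spread within them.

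Markers of striated muscle were near 0 in these livers. The summed level of 15 marker genes was 1.15 to 3.403 CPM in the Cre libraries and 0.484 to 2.14 CPM in the Cre-miR122 libraries. Myh7, Actc1 and Myl2 had 0 counts in every library, and only Tnnt2 had enough counts to be tested. The 5 brown fat markers summed to 19.7 to 34.2 CPM in the Cre libraries and 16.9 to 23.0 CPM in the Cre-miR122 libraries, nearly all of it Fabp4, a fatty acid binding protein also made by endothelial cells and macrophages (25.65 ± 7.53 and 19.6 ± 3.22 CPM, SD, n = 3 each, overlapping). Plin1 had 0 counts in every library. Ucp1, which defines brown fat, had 1 count in Cre replicate 11, 1 in Cre-miR122 replicate 2 and 0 in the others. The hepatocyte markers Alb, Apoa1, Ttr, Tat, Cps1 and Cyp2e1 together took 121800 to 146600 CPM.

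The c subunit of the ATP synthase ring is made from 3 genes that encode the same mature protein with different import sequences. Atp5g3 gave 69.3% ± 1.10 of their summed RPKM with Cre and 68.7% ± 0.168 with Cre-miR122, and Atp5g1 22.4% ± 1.05 and 22.2% ± 0.475 (SD, n = 3 each). Atp5g2 gave 8.33%, 8.18% and 8.26% in Cre replicates 10, 11 and 12 and 8.38%, 9.43% and 9.55% in Cre-miR122 replicates 1, 2 and 4. Its share was higher in all 3 Cre-miR122 libraries, the closest values being 8.33% and 8.38%. Its own level did not separate the groups, at 54.0, 47.6 and 43.3 CPM under Cre against 50.5, 51.0 and 52.3 CPM under Cre-miR122, a log2 fold change of 0.09 (SE 0.094, edgeR adjusted p = 0.858) that was 0.175 without Cre replicate 10 and 0.015 without Cre replicate 12.

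The design compares liver RNA between the vectors with and without the miR-122 sites. No nuclear subunit gene was called different between the vectors: by edgeR 0 of 79 had an adjusted p under 0.05, where 0% of all 14374 tested genes were called in either direction. DESeq2 and limma-voom also called 0 of these genes. At an unadjusted p under 0.05 there was 1 gene, Ndufb4 (1.27% of 79), against 5.41% of all tested genes (2.65% lower and 2.76% higher with Cre-miR122). The groups overlapped for 78 of the 79 genes. Ndufb4 was again the 1 exception (1.27%), against 11.1% of all tested genes whose groups did not overlap in either direction, 5.45% lower and 5.69% higher throughout. The standard errors of the log2 fold changes ran from 0.074 to 0.43, with a median of 0.097, and all 79 estimates lay between -0.33 and 0.16.

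Most estimates were nonetheless below 0. Of the 79 genes 67 (84.8%) lay below 0 and 12 above, against 50.6% below 0 for all tested genes, and their median was -0.10, against -0.0029. By complex the medians were -0.10 for complex I (32 of 35 below 0), 0.013 for complex II (2 of 4), -0.080 for complex III (7 of 8), -0.12 for complex IV (15 of 15 tested) and -0.074 for complex V (10 of 15). Within complexes I and III the medians of the small accessory subunits were the lower ones, a difference not tested. The 28 accessory genes of complex I had a median of -0.10, with all 28 below 0. Of the 7 core genes, which include binders of flavin, iron-sulfur clusters or coenzyme Q, 4 lay below 0 and 3 above. In complex III the 5 small subunits had a median of -0.16, and the Rieske and core protein genes Uqcrfs1, Uqcrc1 and Uqcrc2 one of -0.0054.

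Ndufb4, an accessory subunit of the membrane arm of complex I (chr16:37647602-37654368, minus strand, GRCm38), was at 27.2, 24.8 and 21.1 CPM in Cre replicates 10, 11 and 12 and at 20.6, 18.6 and 18.9 CPM in Cre-miR122 replicates 1, 2 and 4. All 3 Cre libraries lay above all 3 Cre-miR122 libraries, the closest being 21.1 and 20.6. Its log2 fold change was -0.33 (SE 0.11, unadjusted p = 0.0118, edgeR adjusted p = 0.816), and it was -0.25 without Cre replicate 10. Another 2 annotated genes, both pseudogenes, share a stretch of at least 100 bases at 95% identity with its transcript, and no source used here says how reads matching several places were counted.

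The next 4 genes on the lower side overlapped between the groups. Ndufa3, another small complex I subunit, was at 29.8, 32.9 and 25.7 CPM under Cre against 26.3, 24.95 and 24.6 CPM under Cre-miR122, a log2 fold change of -0.22 (SE 0.10) that was -0.14 without Cre replicate 11. Uqcr11, the smallest subunit of complex III, was at 71.0, 74.8 and 59.1 CPM under Cre against 60.2, 61.0 and 55.6 CPM under Cre-miR122, a log2 fold change of -0.21 (SE 0.10). In both, Cre replicates 10 and 11 were high and Cre replicate 12 lay among the Cre-miR122 libraries. Ndufb7 was at -0.19 (SE 0.10), or -0.13 without Cre-miR122 replicate 4, and Ndufs7, an iron-sulfur subunit of the coenzyme Q site, at -0.17 (SE 0.090), and the edgeR adjusted p of all 4 was 0.816.

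On the higher side the smallest p-values belonged to Sdha, Ndufs1 and Atp5b, genes of large subunits. Next came Atp5g2, the gene of the small c subunit given above, and then Atp5a1. Sdha was at 430.0, 322 and 414 CPM in Cre replicates 10, 11 and 12 and at 395, 441 and 463 CPM in Cre-miR122 replicates 1, 2 and 4 (log2 fold change 0.16, SE 0.12, edgeR adjusted p = 0.821). Atp5b was at 1368, 1033 and 1366 CPM under Cre against 1320, 1388 and 1447 CPM under Cre-miR122 (0.14, SE 0.12, edgeR adjusted p = 0.828). Ndufs1, the largest complex I subunit, was at 125, 97.4 and 124 CPM under Cre against 125, 120 and 134 CPM under Cre-miR122 (0.13, SE 0.11, edgeR adjusted p = 0.827). In Sdha, Atp5b and Ndufs1 Cre replicate 11 was the lowest library and the others overlapped. Without it the log2 fold changes were 0.037 for Sdha, 0.018 for Atp5b and 0.017 for Ndufs1, and that of Atp5a1 went from 0.09 to -0.021. Sdha was at 0.235 and Atp5a1 at 0.175 without Cre replicate 10, and Ndufs1 at 0.083 without Cre-miR122 replicate 4.

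**Figure D2:**
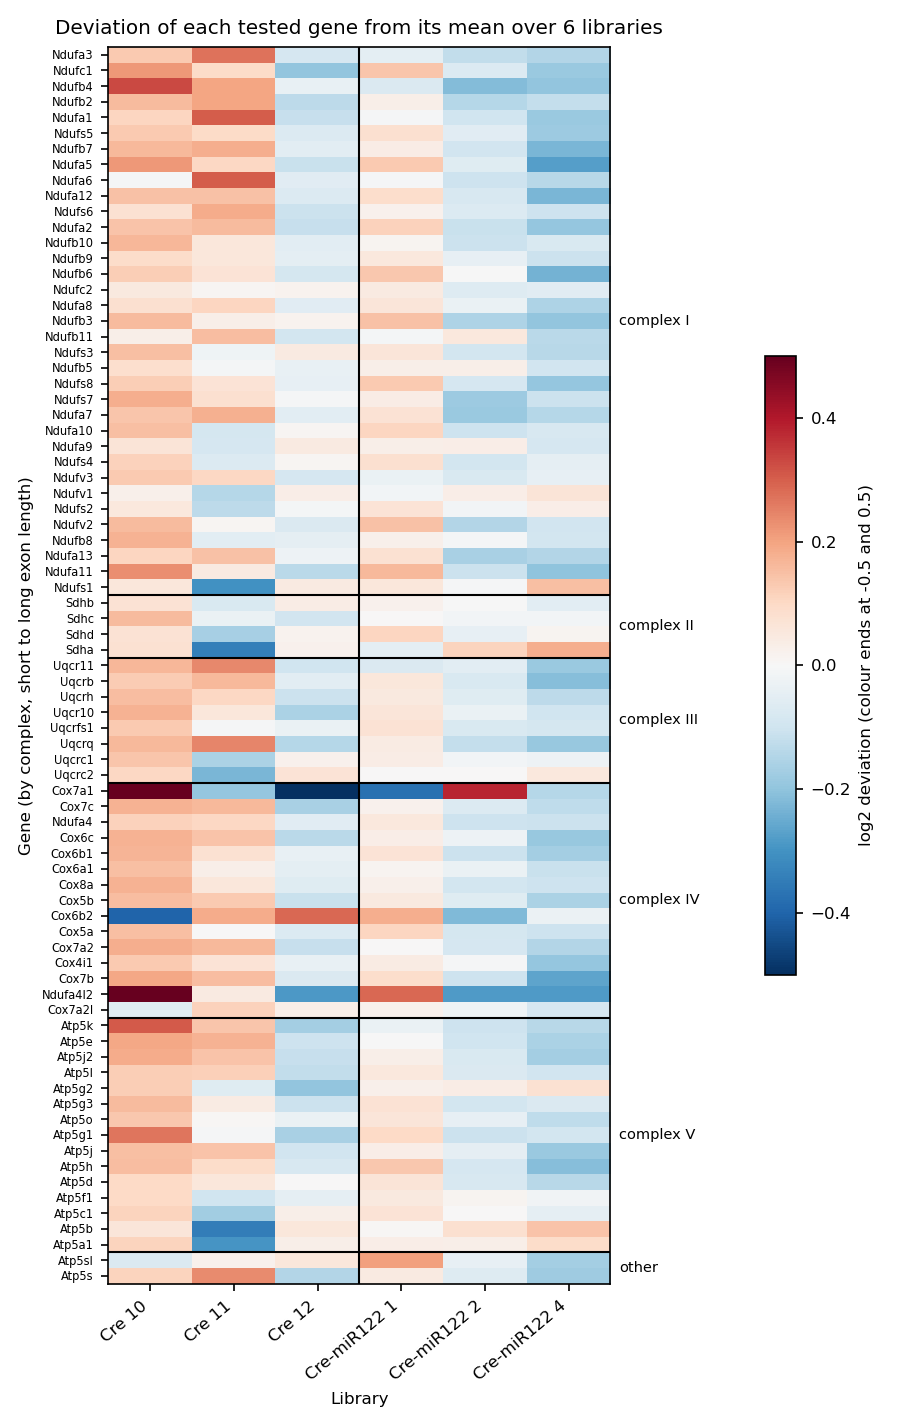
Log2 deviation of each of the 79 tested genes from its own mean over the 6 libraries, in rows by complex and from short to long exon length, with Cre libraries left of the vertical line. Colours end at -0.5 and 0.5. Cre replicate 10 is high in nearly every row, Cre-miR122 replicate 4 is low, and Cre replicate 11 is high in short genes and low in Sdha, Atp5b, Atp5a1 and Ndufs1.

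Most of the genes were high or low in the same libraries, and the libraries did not sort by vector. Their mean deviation from the 6-library mean, on the log2 scale, was 0.14, 0.046 and -0.062 in Cre replicates 10, 11 and 12 and 0.049, -0.061 and -0.11 in Cre-miR122 replicates 1, 2 and 4. Cre replicates 10 and 11 and Cre-miR122 replicate 1 thus lay above the mean, and Cre replicate 12 and Cre-miR122 replicates 2 and 4 below it. In Cre replicate 10, 75 of 79 genes lay above their own mean, and in Cre-miR122 replicate 4 only 9 did. Cre replicate 10 was the highest library for 52 of the 79 genes, against 15.8% of all tested genes, and Cre-miR122 replicate 4 the lowest for 42, against 17.5%. By complex, Cre replicate 11 lay at 0.083 for complex IV, 0.070 for complex I and -0.16 for complex II. The complex II genes took a different order of libraries, and Cre replicate 10 was above the mean for every complex, from 0.094 for complex II to 0.18 for complex IV. Markers of blood cells also differed between libraries. The summed level of 7 erythroid genes was 217, 405 and 599 CPM in Cre replicates 10, 11 and 12 and 360, 499 and 463 CPM in Cre-miR122 replicates 1, 2 and 4, lowest where the subunit genes were highest. The sum of 6 leukocyte genes was 107, 141 and 107 CPM in the Cre libraries and 81.9, 107 and 96.4 CPM in the Cre-miR122 libraries. Of the 6, 5 lay below 0, and Cd3e, at 8 to 13 counts, was higher in all Cre-miR122 libraries. An edgeR unadjusted p under 0.05 was found for 2 of the 6, Cd74 and Cd79a, both lower, against 5.41% of all tested genes. The part of these blood cell markers in the result was not tested.

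Cre replicate 10 was the only library with counts of Y-linked genes in number. It had 1676 counts of the Y-linked gene Ddx3y and 5 of Xist, against at most 1 and at least 15778 in the others. Cre replicate 10 thus has the pattern of a male liver and the other libraries that of female liver, though sex is not labelled. The Cre group therefore mixes the sexes, and the Cre-miR122 group does not. With 1 such library, sex cannot be told apart from its other traits, and the part of sex in the result was not tested. Without Cre replicate 10 the median of the 79 genes was -0.059 and 51 lay below 0. None of the 79 then had an edgeR unadjusted p under 0.05, against 5.64% of all genes tested in that fit. Without Cre replicate 12, the Cre library lowest in these genes, the median was -0.16 and 15 genes had an unadjusted p under 0.05, all lower (19% of 79, against 10.5% of all genes tested in that fit), and without Cre-miR122 replicate 1 there were 7 (8.86%, against 7.79% of all genes in that fit). Again none was called by edgeR after adjustment. Total counts per library were even, from 20340994 to 20817837. The Cre transcript was lower in all 3 Cre-miR122 libraries (12, 16 and 10 counts) than in the Cre libraries (61, 50 and 37). Its log2 fold change was -1.95 (SE 0.284, edgeR unadjusted p = 6.28e-05, edgeR adjusted p = 0.816), so it was not called either. A gene that was not called is thus not shown to be unchanged.

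Exon length moved with the estimates. The nuclear subunit genes are short, with a median exon length of 764 bases against 3409 for all tested genes, and 37 of the 79 were under 750 bases, a class that held 3.12% of all tested genes. The class limits were chosen after the data were seen. Of these 37 genes 36 lay below 0, with a median of -0.12. Among all 449 tested genes of that length 360 lay below 0, with a median of -0.13. From 750 to under 1500 bases the medians were -0.085 over 22 subunit genes, of which 21 lay below 0, and -0.074 over 1513 tested genes, of which 1045 did. From 1500 bases upward they were -0.0010 over 20 subunit genes, of which 10 lay below 0, and 0.0091 over 12412 tested genes. The medians of the subunit genes and of all genes thus lay close together in each class. The share below 0 did not: it was 97.3% of the subunit genes against 80.2% of all genes under 750 bases. From 750 to under 1500 bases it was 95.5% against 69.1%, and from 1500 bases upward 50% against 47.3%. The difference in these shares was not tested.

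The edgeR fit was repeated with each library's trend over exon length removed. The trend was fitted over all tested genes, the subunit genes among them. The median of the 79 genes then was 0.011, with 36 below 0 and 43 above. None of the 79 had an unadjusted p under 0.05 in that fit, against 5.22% of all tested genes. Complex IV went from a median of -0.12 to 0.011 and complex V from -0.074 to 0.028. Ndufb4 was at -0.18 (unadjusted p = 0.0747), Uqcr11 at -0.056 and Ndufa3 at -0.043. Sdha was at 0.16 and Atp5b at 0.17, and Atp5g2, short but above 0 in both fits, was at 0.21 (unadjusted p = 0.0572, edgeR adjusted p = 0.873).

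**Figure D3:**
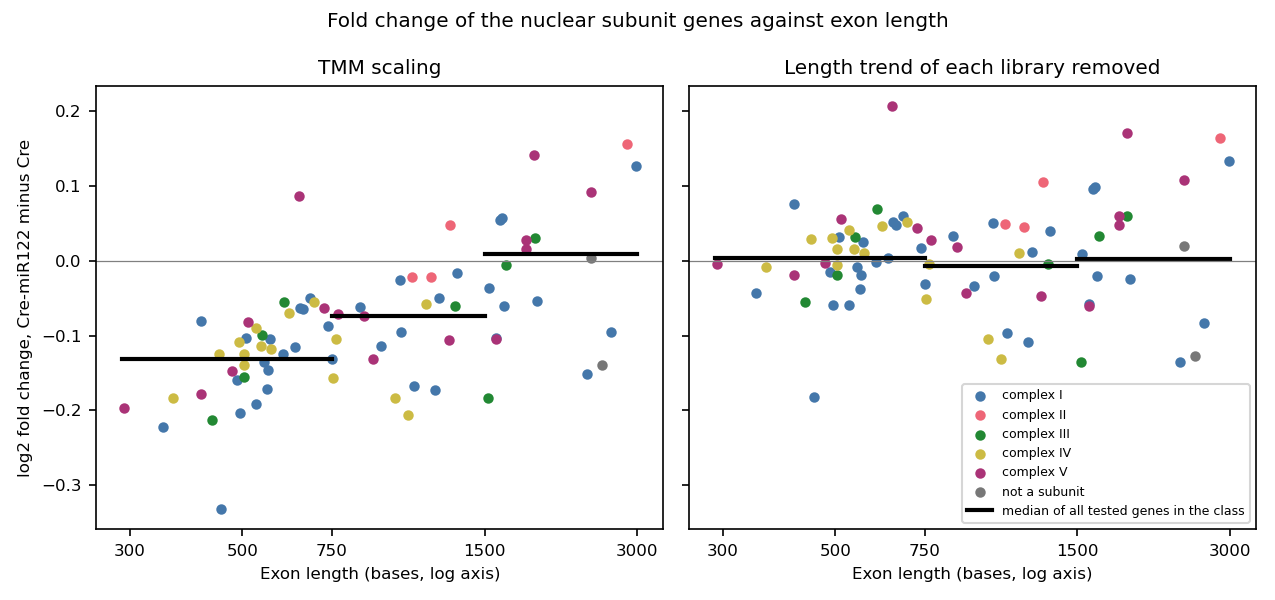
Log2 fold change of the 79 genes against exon length on a log axis, coloured by complex, with TMM scaling on the left and with each library's length trend removed on the right. Black lines are the medians of all tested genes in 3 length classes, at -0.13, -0.074 and 0.0091 on the left and at 0.0034, -0.0064 and 0.0019 on the right. The lines on the right lie near 0 by construction, because the trend was removed. The subunit genes scatter around the lines, with class medians of -0.12, -0.085 and -0.0010 on the left. On the right their class medians are 0.015, -0.0042 and 0.027, after removal of a trend that was fitted with them included.

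The library means of the subunit genes were set beside those of all tested genes in each length class. For genes under 750 bases the mean deviations in Cre replicates 10, 11 and 12 were 0.16, 0.12 and -0.096 for the subunit genes and 0.034, 0.18 and -0.025 for all tested genes of that length. In Cre-miR122 replicates 1, 2 and 4 they were 0.033, -0.069 and -0.14 for the subunit genes and 0.027, -0.069 and -0.15 for all genes. From 1500 bases upward all tested genes lay within 0.013 of 0 in every library, while the subunit genes lay at 0.10 in Cre replicate 10 and -0.074 in Cre replicate 11. In Cre replicate 10 the subunit genes were above all genes in every length class, at 0.16, 0.15 and 0.10 against 0.034, 0.038 and -0.0032. The same held in Cre-miR122 replicate 1 by smaller amounts, at 0.033, 0.071 and 0.054 against 0.027, 0.020 and 0.0060. In Cre replicate 12 they were below all genes in every class, at -0.096, -0.048 and -0.016 against -0.025, -0.0087 and 0.0082.

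**Figure D4:**
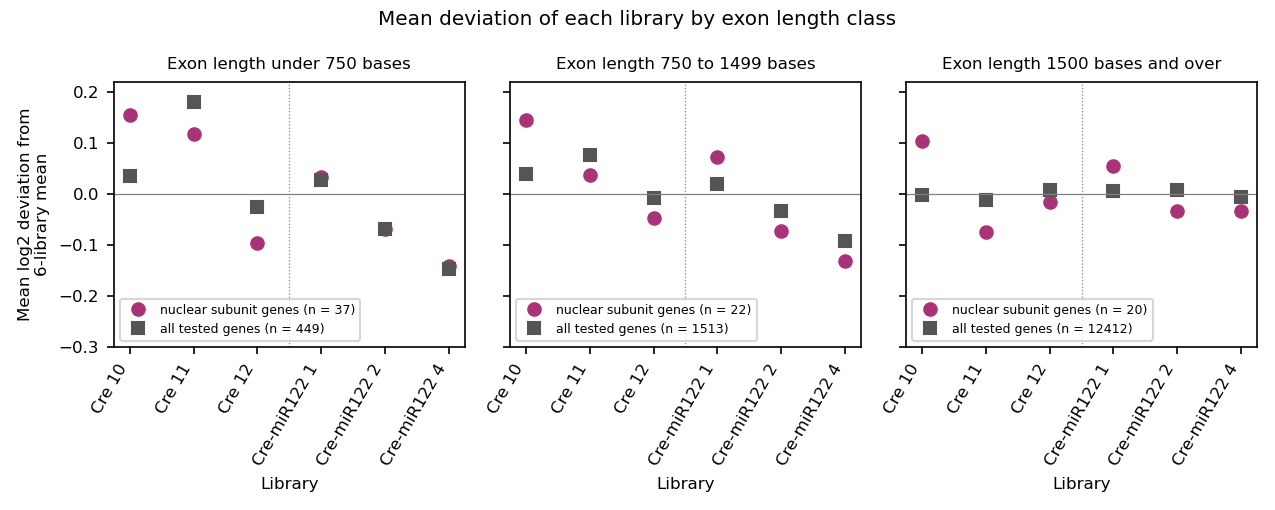
Mean log2 deviation of each library from the 6-library mean for the subunit genes (circles) and all tested genes (squares) in 3 exon length classes, with Cre libraries left of the dotted line. In the Cre-miR122 libraries circles and squares nearly coincide under 750 bases, the circles lie above the squares in all 3 panels in Cre replicate 10 and Cre-miR122 replicate 1, and below them in all 3 in Cre replicate 12.

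Subunits encoded in the mitochondrial genome were also below 0, with a median of -0.22 over 13 genes, all 13 of which are below 0. None was called by edgeR, 2 of 13 (ATP6 and COX2) had an unadjusted p under 0.05 (5.41% of all tested genes), the groups did not overlap for ATP6 and ND4 (11.1% of all tested genes), and their mean deviation was highest in Cre replicate 10, at 0.31, and lowest in Cre-miR122 replicate 2, at -0.28. ATP6, a proton channel subunit of complex V, was at 67.2, 57.7 and 59.0 CPM in Cre replicates 10, 11 and 12 and at 57.4, 42.7 and 47.2 CPM in Cre-miR122 replicates 1, 2 and 4, with the closest libraries just apart. COX2, ATP8, ATP6, COX3, ND3 and ND4L, which lie side by side, were far lower than the other mitochondrial subunit genes. They ran from 6.02 (ATP8) to 81.0 RPKM (ATP6), averaged over the libraries, against 16140 for COX1, 7471 for ND1 and 10900 for CYTB. The estimates of ATP6 and COX2 thus rest on few of the mitochondrial reads. The cause of these low levels was not tested. Of the 9 other genes fixed as subunits or carriers that the name pattern leaves out, 7 lay below 0 and none had an unadjusted p under 0.05, with a median of -0.056. Ndufab1 was at -0.056 (SE 0.090), Cyc1 at 0.0025 (SE 0.095) and the cytochrome c gene Cycs at -0.11 (SE 0.14). In Cre replicate 10 all 9 lay above their own mean.

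Genes that assemble the complexes were split evenly around 0. Of 46 tested assembly factors 23 lay above 0 and 23 below, with a median of -0.0058 and a median exon length of 1806 bases. The subunit genes of 1500 bases and over were likewise split, 10 and 10, and no test compared the lists. An unadjusted p under 0.05 was found for 3 of the 46, against 5.41% of all tested genes. The groups did not overlap for 3 of the 46 on the higher side and 3 on the lower, against 5.69% and 5.45% of all tested genes. These counts lay near those shares. The 3 genes at that p are given next. Nubpl, which delivers iron-sulfur clusters to complex I, was at 8.62, 8.58 and 10.3 CPM under Cre against 11.7, 11.6 and 11.95 CPM under Cre-miR122, with no overlap (log2 fold change 0.36, SE 0.11, edgeR adjusted p = 0.816). Taco1, a translational activator of the mitochondrial COX1 transcript, was at 11.9, 9.23 and 12.7 CPM under Cre against 12.8, 14.6 and 15.9 CPM under Cre-miR122 (0.36, SE 0.14, edgeR adjusted p = 0.816). Its groups did not overlap either, the closest values being 12.7 and 12.8 CPM. Cox17, a copper chaperone for complex IV, was lower in all 3 Cre-miR122 libraries, at 12.4, 13.7 and 13.7 CPM against 16.6, 17.3 and 13.8 CPM with Cre (-0.26, SE 0.11, edgeR adjusted p = 0.816).

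No regulator of these genes was called different. Of 17 tested regulators 10 lay above 0, none had an unadjusted p under 0.05, and the median was 0.056. Ppargc1a, which encodes PGC-1alpha, was at 33.3, 17.3 and 22.6 CPM in Cre replicates 10, 11 and 12 and at 34.3, 18.9 and 27.2 CPM in Cre-miR122 replicates 1, 2 and 4 (log2 fold change 0.14, SE 0.25, edgeR adjusted p = 0.924). It was highest in Cre replicate 10 and Cre-miR122 replicate 1, which were also the highest libraries of their groups for the subunit genes, but the order of the other libraries was the reverse of that of the subunit genes in both groups. Gabpa, a subunit of GABP, was at 46.7 ± 1.77 CPM under Cre against 51.8 ± 0.814 CPM under Cre-miR122 (SD, n = 3 each), without overlap but with an edgeR adjusted p of 0.816. Tfb1m, a mitochondrial ribosomal RNA methyltransferase, was also higher in all 3 Cre-miR122 libraries, at 9.30 ± 0.101 and 10.2 ± 0.492 CPM (edgeR adjusted p = 0.821). These were 2 of 17, where 5.69% of all tested genes were higher throughout. Nrf1 was at 0.15 (SE 0.11), the nuclear receptor gene Esrra at 0.057 (SE 0.10) and Tfam, which packages and transcribes mitochondrial DNA, at -0.023 (SE 0.080). The 11 tested genes of coenzyme Q synthesis had a median of -0.031, with 7 below 0 and none at an unadjusted p under 0.05.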

How the data were processed

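Bulk liver RNA was sequenced in 6 libraries. The authors deposited a count table of whole numbers, unnormalized, with 1 row per gene. The deposited table also gives each gene's exon length in bases. The build was GRCm38 (mm10) and the tools STAR 2.7.9a and, for counting, featureCounts 2.0.1, per the submitters' processing notes. Strand setting and multi-mapping treatment were not given in the sources used here. Columns matching no sample, 5 in number, were not used. Groups and replicate numbers came from sample titles. No library repeated another (lowest pairwise chi-square per degree of freedom 6.15). Totals were 20340994 to 20817837 counts.

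The 14374 genes passing filterByExpr entered a quasi-likelihood fit in edgeR 4.0.16 (R 4.3.3) with TMM scaling, group alone in the model, two-sided, Benjamini-Hochberg adjusted over all tested genes, threshold 0.05. Standard errors were derived from the F statistic. Deviations used a prior count of 0.5. CPM and RPKM used TMM-scaled totals. The fit was run on simulated data with changes larger than those of the subunit genes, and the length offsets with a trend added to a single library. These runs therefore do not show how changes as small as those here would be recovered. Alternatives used DESeq2 1.42.0 and limma 3.58.1. The length offsets came from a lowess over log10 exon length (span 0.3). The genes and lists were chosen with earlier results of these data known. Named were the genes of lowest p on either side of 0, the highest and lowest RPKM in each complex, genes failing the filter, fixed catalytic subunits and isoform sets, and genes of the fixed lists with the smallest p. No protein sequences were used here. GENCODE M21 transcripts, also GRCm38, served to look for near-identical copies: 35 of 84 genes share a stretch of at least 100 bases at 95% identity with another annotated gene.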

Additional observations from a re-analysis of the deposited data

How the results depend on the processing

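No nuclear subunit gene was called in any other fit, in which scaling, filter, tool, abundant genes, mitochondrial rows, length trend or 1 library was changed. Over all genes, DESeq2 called 3 and edgeR without a filter on low counts called 2, none of them a subunit gene, and 0 were called when any 1 library was left out. The median of the subunit genes, -0.10, was 0.011 with the length trend removed. With 1 library left out it ran from -0.16 (Cre replicate 12) to -0.043 (Cre-miR122 replicate 4), and it lay between -0.12 and -0.095 under the other settings, including with the subunits outside the name pattern added and with genes of at least 10 CPM alone. The number of subunit genes at an edgeR unadjusted p under 0.05 with 1 library left out ran from 0 to 15. It was 0 without Cre replicate 10 (against 5.64% of all genes in that fit) and 15 without Cre replicate 12 (19%, against 10.5%). Without Cre-miR122 replicate 1 it was 7 (8.86%, against 7.79%). It was 2 with upper-quartile scaling (2.53%, against 5.43%) and 0 with the length trend removed (against 5.22%). The count over all genes at that p, 778 (5.41% of 14374), was 1169 without a filter, where more genes were tested (5.01% of 23347). With 1 library left out it was 467 (3.22%, Cre replicate 11), 1535 (10.5%, Cre replicate 12) and 425 (2.9%, Cre-miR122 replicate 4).

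Of 687 alternative values of 43 named genes, 39 had the other sign, over 23 genes; except for Cox7a1 these lay close to 0, and the cause was not tested beyond what each setting changes. With the length trend removed they were Atp5g1 at 0.018, Atp5g3 at 0.045, Atp5o at 0.028, Cox5a at 0.053, Cox5b at 0.011, Cox6a1 at 0.042, Cox6b2 at 0.047, Cox7a2l at 0.011, Cox8a at 0.016, Ndufa4 at 0.031, Ndufb10 at 0.0034, Sdhb at 0.049, Sdhc at 0.046 and Uqcrc1 at 0.034. With each library left out in turn, the log2 fold changes ran over the following ranges, with the libraries in parentheses whose absence changed the sign: Atp5a1 -0.021 to 0.175 (Cre 11), Atp5c1 -0.0621 to 0.0783 (Cre 11, Cre-miR122 1), Atp5g1 -0.166 to 0.0514 (Cre 10), Atp5g3 -0.129 to 0.00417 (Cre 10), Cox5a -0.126 to 0.00755 (Cre 10), Cox6b2 -0.254 to 0.06 (Cre 11, Cre 12, Cre-miR122 2), Cox7a1 -0.437 to 0.352 (Cre 10), Ndufa11 -0.208 to 0.00121 (Cre 10), Ndufa4l2 -0.422 to 0.0372 (Cre 10), Ndufv1 -0.00232 to 0.0855 (Cre 11), Ndufv2 -0.155 to 0.00422 (Cre 10), Sdhb -0.0647 to 0.00871 (Cre 10), Sdhc -0.0728 to 0.0565 (Cre 10), Sdhd -0.0196 to 0.098 (Cre 11), Uqcrc1 -0.0823 to 0.0656 (Cre 10, Cre 12, Cre-miR122 2, Cre-miR122 4) and Uqcrc2 -0.0667 to 0.0913 (Cre 11). Atp5c1 was at -0.0025 with no scaling and -2.99e-05 with upper-quartile scaling, and Uqcrc1 at 0.00011 without a filter. No paired analysis was possible because the groups share no replicate number. With 3 libraries a group and standard errors near 0.097, differences of the size seen here were not resolved at this depth and spread.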
